A study of Mus musculus with 28 samples.

Results

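The 9 genes described here are known for their response to the cytokines interleukin-4 (IL-4) and interleukin-13 (IL-13). They are Arg1, Retnla, Chil3, Il4ra, Mrc1, Tgm2, Socs1, Cish and Stat6. They were taken by gene name. All 9 had a value in each of the 28 libraries, out of 19375 genes with a value in every library and 23350 with a value in at least 1.

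IL-4 and IL-13 bind receptors that share the chain encoded by Il4ra. The bound receptor activates JAK kinases, which phosphorylate the transcription factor encoded by Stat6, and STAT6 then enters the nucleus and binds its target genes. In macrophages the response is called alternative activation. Its best known mouse targets are Arg1 (arginase 1, which splits arginine into ornithine and urea), Retnla (resistin-like alpha, a secreted protein also called FIZZ1 or RELMα), Chil3 (the chitinase-like protein Ym1), Mrc1 (the mannose receptor CD206) and Tgm2 (a transglutaminase that crosslinks proteins). Socs1 and Cish encode inhibitors of cytokine signalling, and Cish is best known as a target of STAT5. In allergic inflammation of the lung, Retnla is also made by epithelial cells, and Arg1 is made by group 2 innate lymphoid cells.

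The libraries came from the lungs of wild-type C57BL/6 mice aged 8 weeks. Cells were labelled as basophils, type 1 alveolar epithelial cells (AEC1), type 2 alveolar epithelial cells (AEC2) or group 2 innate lymphoid cells (ILC2). The mice were left untreated, received papain (a plant protease that provokes allergic inflammation) through the nose at 50 µg per day, or received papain with FK506 (tacrolimus, a calcineurin inhibitor). FK506 was given into the peritoneum at 0.2 mg per day for 3 days and, 2 days later, for 3 more days together with papain. AEC1 and AEC2 had 2 libraries per treatment and ILC2 had 3. Basophils had 3 papain libraries (numbered 4, 5 and 6), 3 libraries with papain and FK506 (7, 8 and 9) and 1 untreated library, which was a pool of 2 mice. Transcript 3′ ends were sequenced (QuantSeq) from 10 ng of RNA, and levels are in CPM (read counts scaled to a common total, taken at the 3′ end, so that levels do not scale with transcript length).

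Several libraries stood apart or went against their labels. AEC2 untreated replicate 2 and AEC2 papain replicate 2 shared most of their reads. Of 6534 genes with reads in either library, 2942 (45.026%) had the same number of reads, against 0.318 to 0.641% in the other 9 pairs of AEC2 libraries that could be compared. Their log2 levels correlated at r = 0.994, against 0.62 to 0.724 in the other 14 AEC2 pairs. Which label the shared material belongs to is not known, so the AEC2 results are given with and without both libraries. In the basophil-labelled libraries, the defining basophil genes Mcpt8, Fcer1a, Ms4a2, Prss34 and Cd200r3 were listed at 0 in all 7. The summed level of 10 basophil markers was 0.0 to 293.9 CPM there, while 18 markers of monocytes and macrophages other than alveolar summed to 888.0 to 16289.4 CPM. The AEC1-labelled libraries held 784.2 to 1110.8 CPM of the 10 AEC1 markers, less than the 1731.0 to 4191.7 CPM in the AEC2-labelled ones. They also held 10592 to 28833 CPM of 12 markers of fibroblasts and smooth muscle, and 1415.5 to 5069.5 CPM of 5 mesothelial markers. In AEC2, the 9 AEC2 markers summed to 112530 CPM or more in all 6 libraries, as labelled. In ILC2, replicate 3 of each treatment carried another code in its file name than replicates 1 and 2, and held AEC2 markers at 3698 to 6629 CPM against 0.0 to 548.0 CPM. The library labelled ILC2 with papain and FK506, replicate 3, held 85.0 CPM of the 11 ILC2 markers, against 1560.0 to 3552.0 CPM in the other 8, with Gata3 and Il1rl1 at 0 and macrophage markers at 12556.0 CPM. The file headers of replicate 2 with papain, and of replicate 2 with papain and FK506, carry the number 3. Replicate numbers here follow the titles. The housekeeping gene Gapdh had a 0 in most libraries, so that a 0 says only that a gene was listed there without reads. The libraries held 2002 to 7894 genes above 0, with the fewest in the untreated basophil library. In AEC1 and AEC2, 1 read was worth 0.7485 to 1.1795 CPM. Nothing states that replicates of a treatment came from separate mice, so p-values measure the spread between these libraries.

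**Figure D1:**
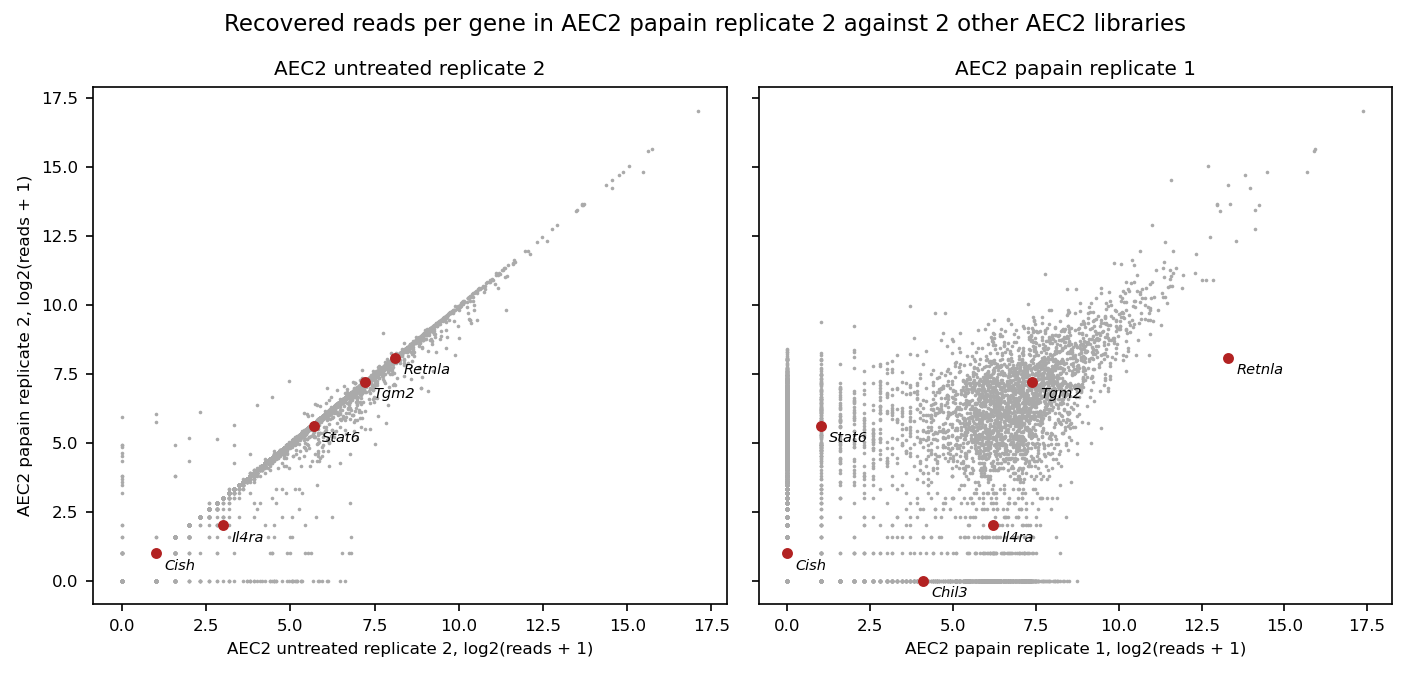
Recovered reads per gene, as log2(reads + 1), in AEC2 papain replicate 2 (y axis) against AEC2 untreated replicate 2 (left) and AEC2 papain replicate 1 (right). Grey points are genes and red points are the IL-4 and IL-13 response genes with reads. On the left the genes follow the diagonal, with 273 and 271 reads for Retnla and 148 and 147 reads for Tgm2, while on the right the points scatter widely.

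The shared reads reached every member detected in that pair. Retnla had 273 reads in the untreated and 271 in the papain library, Tgm2 148 and 147, Stat6 51 and 48, Il4ra 7 and 3, and Cish 1 and 1. Arg1, Chil3, Mrc1 and Socs1 had 0 reads in both. The plot of reads per gene shows the same closeness over all genes.

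By the mouse annotation GENCODE M21 (build GRCm38), all 9 members are protein-coding genes. Arg1 lies on chromosome 10 from 24915221 to 24927484 and Stat6 on chromosome 10 from 127642986 to 127660957. Retnla lies on chromosome 16 from 48842551 to 48844461 and Socs1 on chromosome 16 from 10782240 to 10785536. Chil3 lies on chromosome 3 from 106147554 to 106167564, and Il4ra on chromosome 7 from 125552120 to 125579474. Mrc1 lies on chromosome 2 from 14229392 to 14332057 and Tgm2 on chromosome 2 from 158116402 to 158146436. Cish lies on chromosome 9 from 107296026 to 107302784.

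Promoter sequences from RefSeq (build GRCm38.p6, from 250 bases before to 50 bases after the start of each gene) were held for 7 of the 9 members, all but Arg1 and Tgm2. They were searched for 2 motif forms on both strands, which read the same on either strand. The STAT6-type form is TTCNNNNGAA, with 4 bases between TTC and GAA, and the STAT5-type form is TTCNNNGAA, with 3 bases. Of 27025 promoters of the same 300-base length, 7.0% held the STAT6-type form, 8.5% the STAT5-type form and 14.7% either. Among the members, 3 of 7 held either form, namely Retnla, Chil3 and Cish, and no match was found in these windows for Il4ra, Mrc1, Socs1 and Stat6. STAT6 carries the IL-4 and IL-13 signal, and of these promoters only that of Retnla held the STAT6-type form. Chil3 and Cish held only the STAT5-type form. The sequences with a match to either form are shown. Each is written 5′ to 3′ on the strand of its gene, with the motif in capitals. The Retnla stretch (chr16:48842359-48842548, plus strand) ends 60 bases before the RefSeq start and has its STAT6-type match 145 bases before it. The Chil3 stretch (chr3:106167565-106167814, minus strand) ends at the base before the start and has its STAT5-type match 172 bases before it. The Cish stretch (chr9:107296409-107296678, plus strand) runs to 20 bases past the start and holds 2 STAT5-type matches, at the start itself and 11 bases after it. A match is a description of the letters and was not measured as a bound site.
Retnla: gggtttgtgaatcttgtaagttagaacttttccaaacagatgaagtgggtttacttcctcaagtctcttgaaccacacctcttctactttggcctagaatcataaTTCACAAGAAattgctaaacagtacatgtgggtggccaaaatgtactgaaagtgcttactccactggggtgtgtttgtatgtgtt
Chil3: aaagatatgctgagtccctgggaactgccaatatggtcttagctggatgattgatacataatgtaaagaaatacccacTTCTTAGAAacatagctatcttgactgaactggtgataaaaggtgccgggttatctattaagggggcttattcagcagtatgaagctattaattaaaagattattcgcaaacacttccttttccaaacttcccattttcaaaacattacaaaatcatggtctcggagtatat
Cish: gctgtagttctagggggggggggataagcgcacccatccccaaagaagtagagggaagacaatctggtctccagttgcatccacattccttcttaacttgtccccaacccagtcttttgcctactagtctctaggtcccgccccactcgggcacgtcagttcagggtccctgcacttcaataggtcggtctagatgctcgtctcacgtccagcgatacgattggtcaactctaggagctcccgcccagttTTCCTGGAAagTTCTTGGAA

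**Figure D2:**
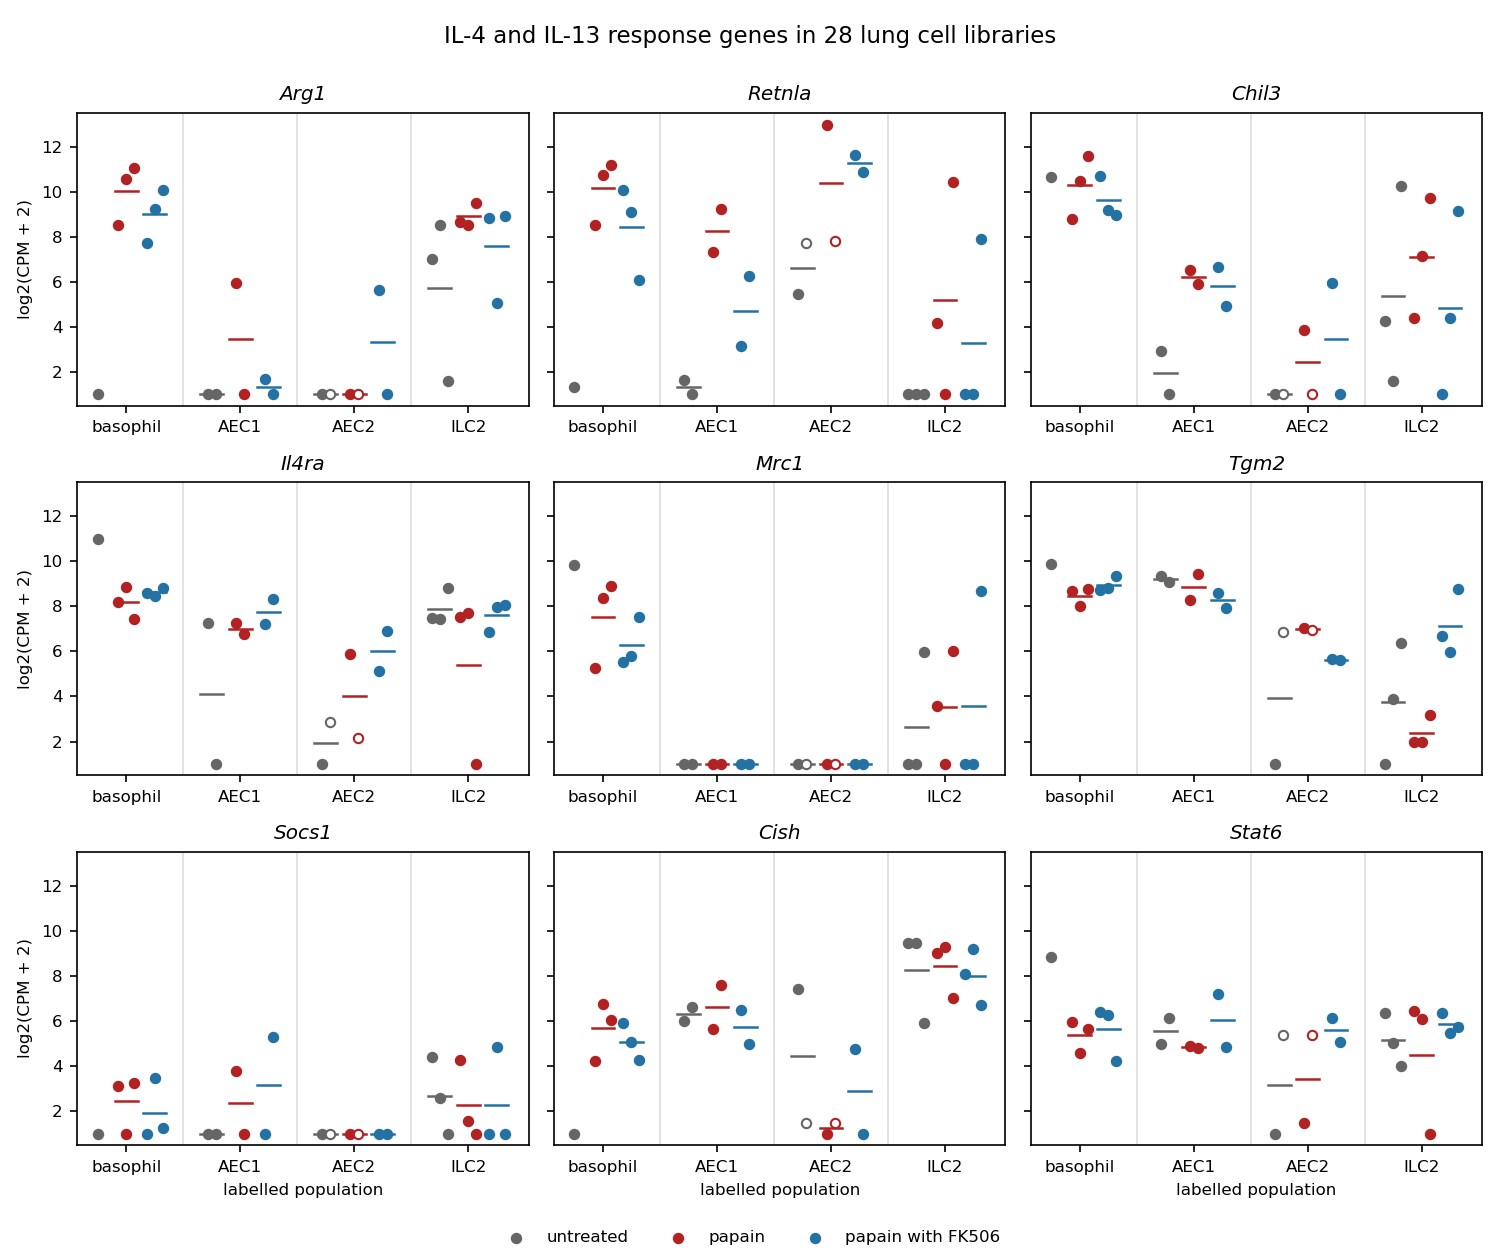
Level of each of the 9 members, as log2(CPM + 2), in the 28 libraries, grouped by labelled population on the x axis and coloured by treatment. Each point is 1 library, short bars are group means where a group has more than 1 library, and open points are the 2 AEC2 libraries that share reads. Arg1 and Retnla sit at the floor in the untreated basophil-labelled library and above it in all 6 treated ones, Mrc1 is at the floor in every AEC library, and Retnla is highest in AEC2.

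The plot of members by library shows how unevenly the 9 genes were distributed over the populations. In the basophil-labelled libraries Chil3 had the highest median (1425.8 CPM, range 432.5 to 3069.7), followed by Arg1 (602.7) and Retnla (543.5), with overlapping ranges. In AEC2, Retnla was the leading member (median 1059.6 CPM, range 42.0 to 7876.2), and in AEC1 it was Tgm2 (median 463.4, range 243.0 to 688.9). In ILC2, Cish (median 509.0, range 58.0 to 709.0) and Arg1 (median 365.0, range 1.0 to 728.0) led, and their ranges overlapped. Mrc1 was listed at 0 in all 12 AEC libraries. Socs1 was low everywhere, reaching 10 CPM in 5 of 28 libraries, with a maximum of 37.7 CPM. The listed values summed to 986819 to 992527 CPM in the AEC1 and AEC2 libraries and to 519768 to 672357 CPM in the others, so levels were tested between populations for AEC1 and AEC2 only.

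In the basophil-labelled libraries, the question was how papain, and FK506 on top of papain, changed these genes. Arg1 and Retnla were near absent in the untreated library and present in every treated one, at 64.9 CPM or more. Il4ra moved the other way, from its highest level of the series in the untreated library to levels several times lower. Chil3, the other classical alternative activation gene, was high in all 7 libraries. No member differed between papain with FK506 and papain alone beyond the spread of the libraries.

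Arg1 was listed at 0 CPM in the untreated library, at 363.6, 1510.8 and 2119.6 CPM after papain and at 209.5, 602.7 and 1078.9 CPM after papain with FK506. All 6 treated libraries were above the untreated one, and the 2 treated groups overlapped. Retnla was at 0.5 CPM untreated, at 367.8, 1700.1 and 2299.2 CPM after papain and at 1087.9, 543.5 and 64.9 CPM after papain with FK506. Its treated groups also overlapped, with the FK506 library 9 lowest of the 6. Cish was listed at 0 CPM untreated, at 16.6, 107.3 and 64.4 CPM after papain and at 58.0, 31.8 and 17.4 CPM with FK506. It was thus detected in all treated libraries at much lower levels than Arg1 and Retnla.

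Il4ra was at 2021.2 CPM in the untreated library, at 293.5, 464.7 and 173.2 CPM after papain and at 382.3, 347.2 and 454.1 CPM with FK506. Every treated library was below the untreated one. Stat6 followed the same order, with 461.9 CPM untreated, 60.5, 22.0 and 47.4 CPM after papain and 82.0, 75.7 and 16.6 CPM with FK506. Receptor chain and transcription factor transcripts were thus both highest in the 1 untreated library, where Arg1 and Retnla were lowest. That library had the fewest genes above 0 (2002), and 13.6% of all genes had every papain library below it. Mrc1 was at 897.3 CPM untreated, at 36.5, 324.5 and 473.2 CPM after papain and at 43.6, 54.1 and 180.8 CPM with FK506. Tgm2 was at 928.1 CPM untreated, at 406.2, 253.7 and 430.3 CPM after papain and at 423.3, 446.6 and 651.5 CPM with FK506. Both were below the untreated library in all 6 treated libraries. Chil3 was at 1591.6 CPM untreated, at 432.5, 1425.8 and 3069.7 CPM after papain and at 1672.6, 580.4 and 504.0 CPM with FK506, so the untreated library lay within both treated groups. Socs1 did not exceed 9.1 CPM in any of the 7.

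In limma fits on log2(CPM + 2) values, which understate the change of low genes, 8 of the 9 members passed the filter on low values (10 CPM in at least 3 libraries) and Socs1 did not. Papain versus untreated called 4 of the 8 at an adjusted p under 0.05, namely Arg1, Retnla and Cish as higher and Il4ra as lower. Arg1, Retnla and Cish reached 10 CPM in the 6 treated libraries and not in the untreated one. They entered the test only through the groups where they are high, so a rise was built into their being tested and the count of calls supports nothing further. Of all 5853 genes tested, 23.1% were called, 21.1% as higher (1234 genes) and 2% as lower (117 genes), and the median difference over all genes was 3.05 on the log2 scale. Il4ra reached 10 CPM in all 7 libraries and was lower after papain. The part that the few genes above 0 in the untreated library play in this fall, and in the median rise, was not tested. The fitted log2 difference of Retnla was 8.95 (SE 1.21, adjusted p = 7.53e-05) and that of Il4ra was -2.42 (SE 0.62, adjusted p = 0.0102). For Arg1 the adjusted p was 1.09e-05 and for Cish 0.0443, and since both were listed at 0 in the untreated library no fold is given. Stat6 (-3.08, SE 1.13, adjusted p = 0.0604), Mrc1 (-1.92, SE 1.17, adjusted p = 0.240), Tgm2 (adjusted p = 0.215) and Chil3 (0.03, SE 0.86, adjusted p = 0.982) did not pass. Without papain replicate 5 the adjusted p of Cish was 0.123, without papain replicate 6 it was 0.102 and without FK506 replicate 8 it was 0.0569. Stat6 passed without FK506 replicate 7 (adjusted p = 0.0303) and without FK506 replicate 9 (0.0223), and under all 3 other scalings (0.0317 to 0.0358). The untreated side is 1 library with 2002 genes above 0, against 6401 to 7894 in the treated ones, and its spread was taken from the treated groups. Retnla was at 0.5 CPM in that library, so its fitted difference depends on the 2 CPM added, as do those of Arg1 and Cish.

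Groups that do not overlap were common in this comparison. Over all genes, 55.5% had every papain library above the untreated one and 13.6% had every papain library below it. Among the 8 members there were 3 above (Arg1, Retnla and Cish) and 4 below (Il4ra, Mrc1, Stat6 and Tgm2).

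Papain with FK506 versus untreated gave a similar picture. It shares the untreated library with the comparison above, so the 2 sets of values are not independent, and Arg1, Retnla and Cish entered it through the treated libraries alone. The fitted differences of these genes again depend on the 2 CPM added. Here 3 of 8 members were called, 2 as higher and 1 as lower, where 23.3% of all genes were, 21.1% as higher and 2.2% as lower. The fitted log2 difference of Retnla was 7.18 (SE 1.21, adjusted p = 4.99e-04) and that of Il4ra was -2.02 (SE 0.62, adjusted p = 0.0271), and Arg1 passed with an adjusted p of 2.99e-05. Cish (adjusted p = 0.0786), Mrc1 (-3.19, SE 1.17, adjusted p = 0.0615) and Stat6 (-2.89, SE 1.13, adjusted p = 0.0776) did not pass. The call of Il4ra was lost without FK506 replicate 8 (adjusted p = 0.0648), and that of Retnla was lost under robust empirical Bayes moderation (0.0667). Mrc1 passed without papain replicate 4 (0.0103) and without FK506 replicate 9 (0.0278), Cish without papain replicate 4 (0.0494) and Stat6 without FK506 replicate 7 (0.0338).

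Papain with FK506 versus papain alone called 0 of the 8 members and 0% of the 5853 genes (0 genes by limma, with 354 at an unadjusted p under 0.05). The treated groups overlapped for all 8 members, where 5.77% of all genes lay wholly above and 5.62% wholly below. The log2 difference was -1.77 for Retnla (SE 0.85, adjusted p = 0.812), -1.27 for Mrc1 (SE 0.83, adjusted p = 0.837), -1.07 for Arg1 (SE 0.68, adjusted p = 0.837), -0.69 for Chil3 (SE 0.61) and -0.64 for Cish (SE 1.14). It was 0.45 for Tgm2 (SE 0.41), 0.40 for Il4ra (SE 0.44) and 0.20 for Stat6 (SE 0.80). None of these 8 differences passed the test. Leaving out libraries one at a time moved Retnla between -2.59 and -0.58, and Arg1 between -1.84 and -0.39. The highest of these Retnla values came from a fit without FK506 replicate 9, the library with 64.9 CPM. Without papain replicate 6 the difference of Chil3 was 0.00, and that of Stat6 was -0.20 without papain replicate 5, -0.15 without FK506 replicate 7 and -0.14 without FK506 replicate 8.

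**Figure D3:**
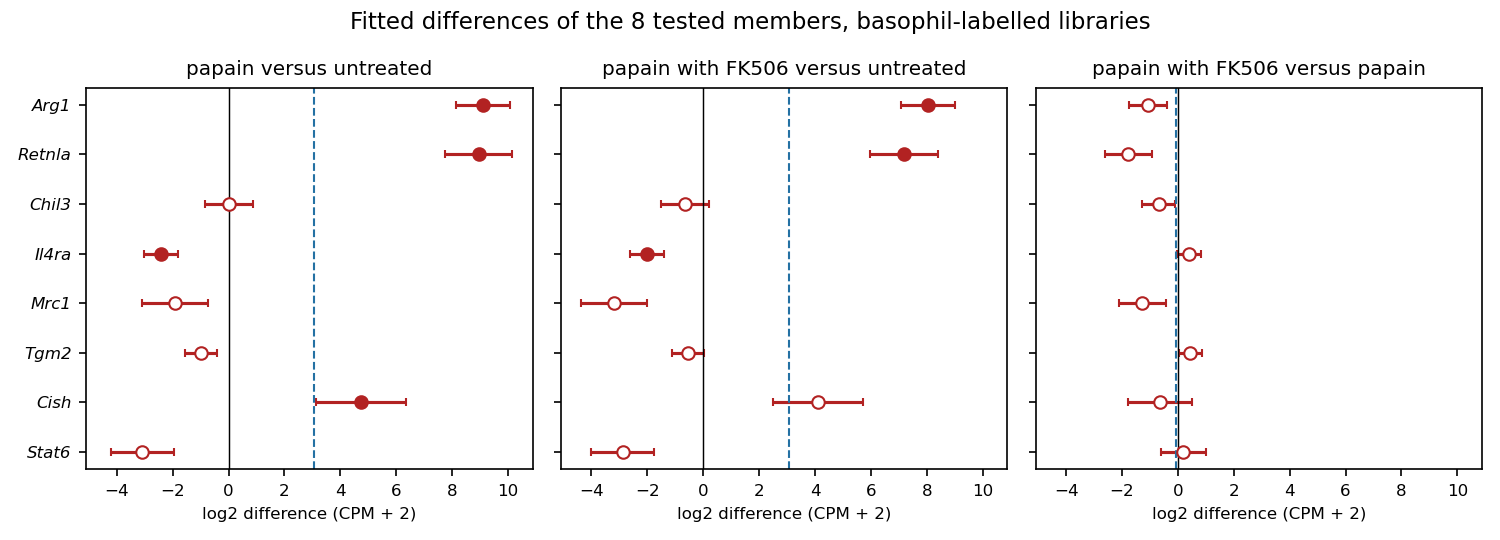
Fitted log2 differences (x axis, on the log2(CPM + 2) scale) of the 8 tested members in the basophil-labelled libraries, with bars of 1 standard error. Filled points passed an adjusted p of 0.05, the solid line is 0 and the dashed line is the median over all genes tested. Arg1, Retnla and Cish lie beyond the median (3.05 for papain versus untreated) in both comparisons with the untreated library. Il4ra, Stat6, Mrc1 and Tgm2 lie below 0 there, and of these only Il4ra is filled. All points are open in papain with FK506 versus papain. The positions of Arg1, Retnla and Cish against the untreated library depend on the 2 CPM added.

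Marker sums of several cell types also differed between these libraries. The 18 monocyte and macrophage markers, led by Apoe in 6 of the 7 libraries, summed to 6119.7 CPM in the untreated library, to 9600.6, 16289.4 and 14840.7 CPM after papain and to 888.0, 9064.2 and 12207.3 CPM with FK506. Csf1r, the receptor that defines macrophages, was present in all 7 libraries at 55.9 to 1517.5 CPM, and C1qa at 19.2 to 1635.1 CPM. Other markers of this list were near absent in the untreated library, with C1qb and C1qc at 0.5 CPM each. After papain C1qb was at 720.9 to 1356.6 CPM and C1qc at 877.1 to 1162.6 CPM. With FK506 they were at 31.0 to 922.4 CPM and at 0 to 1031.4 CPM. The 12 alveolar macrophage markers summed to 1306.8 CPM untreated, to 1060.3 to 1419.3 CPM after papain and to 1121.1 to 2555.5 CPM with FK506. Arg1 was lowest among treated libraries in FK506 library 7 (209.5 CPM), the library with the lowest macrophage sum (888.0 CPM). Retnla in that library was the highest of its group at 1087.9 CPM. The same library held the most AEC2 markers (10806.9 CPM) and airway markers (6221.8 CPM). AEC2 markers summed to 744.8 CPM untreated, to 867.0 to 1676.5 CPM after papain and to 2354.6 to 10806.9 CPM with FK506. Other lists lay wholly apart between the treated groups. The 10 dendritic cell markers, led by H2-Ab1 in 6 of the 7 libraries, summed to 8736.5 to 13115.5 CPM after papain and to 469.1 to 5952.6 CPM with FK506. The 12 markers of fibroblasts and smooth muscle came to 290.8 to 1567.4 CPM after papain and to 3200.0 to 4694.7 CPM with FK506. The 7 eosinophil markers summed to 0.0 CPM untreated, to 134.8 to 545.1 CPM after papain and to 6.2 to 123.1 CPM with FK506. At least 5 of the 7 were at 0 in every library. Among them, Rnase2a was at 134.8 to 544.8 CPM after papain and at 0.0 CPM in the other 4 libraries. Siglecf went the other way, at 0 CPM after papain and at 36.7, 5.8 and 0.4 CPM with FK506. FK506 library 7 also held 1185.7 CPM of the 11 ILC2 markers, against 0.0 to 166.4 CPM in the other 6. The part of these cells in the results on Arg1, Retnla, Chil3 and Mrc1 was not tested. In bulk libraries, fewer cells of a type and less RNA per cell cannot be told apart.

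**Figure D4:**
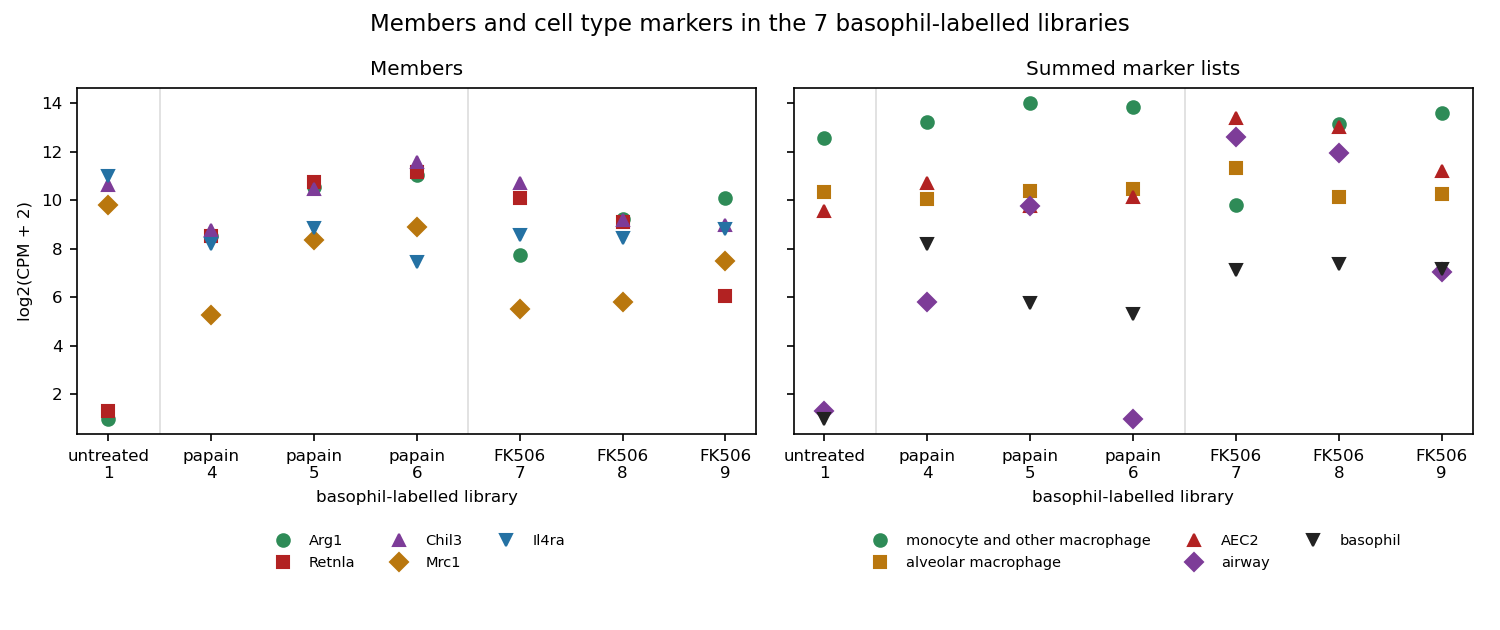
Levels of 5 members (left) and summed levels of 5 marker lists (right), both as log2(CPM + 2), in the 7 basophil-labelled libraries on the x axis, where FK506 stands for papain with FK506. Macrophage markers are high in all libraries but FK506 library 7 (888.0 CPM), basophil markers do not exceed 293.9 CPM, and AEC2 markers are highest in the libraries with FK506.

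Other genes of the pathway were described from lists chosen by their known roles. Of 6 ligand and receptor genes, 2 were tested in the basophil-labelled libraries and 1 was called higher after papain than untreated, Il2rg (the common gamma chain). Il2rg was at 0.5 CPM untreated and at 39.7 to 167.4 CPM after papain. Il4 was listed at 0 in all 28 libraries. Of 12 JAK and STAT signalling genes, 10 were tested and 3 were called higher, where 21.1% of all genes were. This share is near the background. The 3 were Jak1, a kinase of the IL-4 receptor, with 0.0 CPM untreated and 105.7 to 325.1 CPM after papain, the phosphatase gene Ptpn6 with 0.0 and 14.3 to 207.8 CPM, and the inhibitor gene Socs2 with 0.0 and 34.3 to 152.4 CPM. Il2rg, Jak1, Ptpn6 and Socs2 entered the test only through treated libraries, so a rise was built into their being tested and their calls support nothing further. The median log2 difference of the JAK and STAT list was 3.29, against 3.05 over all genes. Socs3 did not pass, with 1872.1 CPM untreated and 1293.6 to 1476.0 CPM after papain.

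Of 29 further alternative activation genes of macrophages, 19 were tested after papain and 8 were called higher and 1 lower, where 21.1% of all genes were called higher and 2% lower. Their median log2 difference was 4.60, against 3.05 over all genes, and both medians include genes listed at 0 in the untreated library, whose fitted values depend on the 2 CPM added. Ccl24, an eosinophil-attracting chemokine, was at 0.0 CPM untreated and at 117.2, 268.9 and 710.2 CPM after papain, and at 0.4, 29.6 and 0.0 CPM with FK506. Every papain library thus lay above every FK506 library, although Ccl24 did not pass the test of that difference. Clec7a (the receptor dectin-1) was at 0.0 CPM untreated, at 93.2, 392.0 and 435.4 CPM after papain and at 27.9, 162.6 and 333.7 CPM with FK506. Trem2, a lipid-sensing receptor of macrophages, was at 0.5 CPM untreated and at 123.6, 112.5 and 254.3 CPM after papain. Ccl24, Clec7a and Trem2 thus entered the test only through treated libraries, so a rise was built into their being tested. The count of calls and the median of this list therefore support nothing further. The other called genes of this list were Ptgs1, Cdh1, Cd36, Fn1 and Klf4 as higher and Flt1, the receptor for VEGF, as lower (365.2 CPM untreated and 12 to 60.5 CPM after papain). In papain with FK506 versus papain, 0 of the 19 were called and their median was -1.20, against -0.07 over all genes. Several of these genes also mark macrophages as such. In the untreated library the macrophage marker sum was 6119.7 CPM, beside 0.0 to 0.5 CPM of Ccl24, Clec7a and Trem2. Trem2 is itself in that marker list, and C1qb and C1qc of the same list were also at 0.5 CPM there. After papain the sum was 9600.6 to 16289.4 CPM, and with FK506 it was 888.0 to 12207.3 CPM. The part of macrophages in these results was not tested.

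Of 10 close relatives of the members, 5 were tested and 2 were called higher after papain, where 21.1% of all genes were. Their median log2 difference was 1.19, against 3.05 over all genes. A count this small supports nothing further. Chil4, the near-identical neighbour of Chil3, was listed at 0 in all 28 libraries, and no source used here says how reads matching both were counted, so the values of Chil3 are uncertain in that respect. Retnlg, the neutrophil relative of Retnla, was at 367.1 CPM in the untreated basophil-labelled library, at 461.3, 111.2 and 85.2 CPM after papain and at 0.4, 93.9 and 0.4 CPM with FK506. It was thus present in the untreated library, and it fell in papain with FK506 versus untreated (log2 difference -5.16, SE 1.76, adjusted p = 0.0448). Chil1, another chitinase-like gene, was at 0.0 CPM untreated and at 19.1 to 39.5 CPM after papain and 72.2 to 334.8 CPM with FK506. Arg2 did not exceed 89.0 CPM in any of the 28 libraries.

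In AEC1, the question was the same for a population labelled as alveolar epithelium. Retnla was at 1.1 and 0.0 CPM untreated, at 155.6 and 593.6 CPM after papain and at 7.0 and 75.5 CPM after papain with FK506. All 3 groups were apart, with papain highest and FK506 between. Chil3 was at 5.6 and 0.0 CPM untreated, at 90.0 and 57.4 CPM after papain and at 99.2 and 28.3 CPM with FK506. Both treated groups lay above the untreated libraries and overlapped each other.

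Tgm2 was at 656.6 and 541.7 CPM untreated, at 311.3 and 688.9 CPM after papain and at 385.1 and 243.0 CPM with FK506, so that the FK506 libraries lay below the untreated ones. Il4ra was at 149.3 and 0.0 CPM untreated, at 149.3 and 106.6 CPM after papain and at 144.7 and 316.1 CPM with FK506. Stat6 was at 29.2 and 67.9 CPM untreated, at 27.5 and 25.6 CPM after papain and at 147.0 and 27.1 CPM with FK506. The receptor and the transcription factor thus showed no common direction. Cish was at 61.7 and 95.5 CPM untreated, at 47.6 and 191.7 CPM after papain and at 87.5 and 29.5 CPM with FK506, with overlapping groups. Arg1 reached 59.3 CPM in papain replicate 1 and at most 1.2 CPM in the other 5 libraries. Socs1 reached 11.6 CPM in papain replicate 1 and 37.7 CPM in FK506 replicate 2.

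Of the 9 members, 7 were tested in AEC1, and 0 were called in any of the 3 comparisons, where 0%, 0% and 0.0245% of 8178 genes were called by limma for papain versus untreated, papain with FK506 versus papain and papain with FK506 versus untreated. An unadjusted p under 0.05 was reached by 761, 496 and 957 genes in that order. The fitted log2 difference of Retnla after papain was 7.00 (SE 1.6, adjusted p = 0.442) and that of Chil3 was 4.31 (SE 1.46, adjusted p = 0.449). Run on the reads recovered from the CPM values, edgeR's quasi-likelihood test called Retnla with an adjusted p of 0.0201 (log2 difference 9.19) and DESeq2 with an adjusted p of 0.00141 (9.43), and neither called another member. Groups lay apart for 2 of the 7 members as higher and 1 as lower after papain, where 19.2% of all genes were higher and 14.2% lower. In papain with FK506 versus untreated, groups also lay apart for 2 members as higher (Retnla and Chil3) and 1 as lower (Tgm2). There 24.9% of all genes were higher in this sense and 14.4% lower. For papain with FK506 versus papain, Retnla had a log2 difference of -3.67 (SE 1.6, adjusted p = 0.822), with both FK506 libraries below both papain libraries. Of the 7 members, 1 was lower in this sense, where 12.9% of all genes were. Markers of several cell types moved with treatment in these libraries. The 12 alveolar macrophage markers summed to 185.1 and 139.3 CPM untreated, to 334.6 and 296.2 CPM after papain and to 33.8 and 221.8 CPM with FK506, and the 18 markers of other macrophages to 391.1 to 737.3 CPM over all 6 libraries. Neutrophil markers summed to 0.0 and 3.5 CPM untreated, to 140.8 and 46.2 CPM after papain and to 39.7 and 83.7 CPM with FK506. Markers of fibroblasts and smooth muscle came to 12169.5 and 10592.2 CPM untreated, to 28069.3 and 16958.1 CPM after papain and to 28833.1 and 19956.6 CPM with FK506. AEC2 markers summed to 6305.2 and 9716.9 CPM untreated, to 2349.7 and 1491.5 CPM after papain and to 1961.6 and 4475.4 CPM with FK506. The part of these cells in the levels of Retnla and Chil3 was not tested.

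In AEC2, Retnla stood at 42.0 and 210.1 CPM untreated, at 7876.2 and 222.6 CPM after papain and at 3124.1 and 1896.6 CPM after papain with FK506. The 2 libraries that share reads are the second untreated (210.1 CPM) and the second papain library (222.6 CPM). Without them, 1 untreated library at 42.0 CPM is left beside 1 papain library at 7876.2 CPM and the 2 libraries with FK506. With or without them, every treated library was above every untreated one. With them, this rests for papain on 222.6 against 210.1 CPM, which are the 271 and 273 shared reads. Of all genes, 13.6% lay wholly above the untreated libraries after papain and 18.9% after papain with FK506. In papain replicate 1, Retnla made up 97.5% of the summed level of the 9 members.

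Of the 9 members, 6 were tested in AEC2 and 0 were called in each of the 3 comparisons, where 0% of 6719 genes were called in each by limma. An unadjusted p under 0.05 was reached by 15 genes for papain versus untreated, 284 for papain with FK506 versus papain and 307 for papain with FK506 versus untreated. Papain versus untreated gave Retnla a log2 difference of 3.63 (SE 1.26, adjusted p = 1.000) with all libraries and 7.20 (adjusted p = 0.445) without the shared pair. Papain with FK506 versus untreated gave 4.51 (SE 1.26, adjusted p = 0.909) with all libraries and 5.51 (adjusted p = 0.372) without the pair. By edgeR and DESeq2 on recovered reads 0 members were called in each comparison, in a fit without untreated replicate 1, whose values were rounded. In fits that kept the shared pair but had fewer other libraries, Retnla was called. The adjusted p of papain versus untreated was 4.68e-05 with only those 2 groups, 3.44e-05 without FK506 replicate 1 and 1.85e-05 without FK506 replicate 2. That of papain with FK506 versus untreated was 2.88e-04 without FK506 replicate 1 and 3.77e-07 without FK506 replicate 2. All 5 of these fits hold the shared pair.

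The remaining members were low in AEC2. Tgm2 was at 0.0 and 113.9 CPM untreated, at 129.8 and 120.8 CPM after papain and at 47.9 and 47.2 CPM with FK506. The 2 papain libraries lay above the other 4. Of all genes, 13.6% lay wholly above untreated after papain, and 10.7% lay wholly below papain in the libraries with FK506. Against untreated, this rests for Tgm2 on 120.8 against 113.9 CPM, which are the 147 and 148 shared reads. Without the shared pair, 1 papain library at 129.8 CPM is left above the other 3. Il4ra was at 0.0 and 5.4 CPM untreated, at 56.7 and 2.5 CPM after papain and at 32.9 and 116.8 CPM with FK506. Both FK506 libraries were above both untreated ones, and this held without the pair. Stat6 was at 0.0 and 39.2 CPM untreated, at 0.8 and 39.4 CPM after papain and at 67.4 and 31.5 CPM with FK506. Cish was at 170.0 CPM in untreated replicate 1, at 25.4 CPM in FK506 replicate 1 and at most 0.8 CPM in the other 4. Arg1 was above 0 only in FK506 replicate 1 (47.2 CPM), and Chil3 was at 12.4 CPM in papain replicate 1, at 59.1 CPM in FK506 replicate 1 and listed at 0 in the other 4. The 18 markers of monocytes and other macrophages summed to 175.0 to 408.5 CPM in AEC2, with 15 or 16 of them at 0 in each library, and the 12 alveolar macrophage markers to 0.0 to 129.4 CPM. In papain replicate 1 the first sum was 175.0 CPM, led by Cd14 (101.1 CPM), and the second was 0.0 CPM. Csf1r, C1qa, C1qb, C1qc, Marco and Adgre1 were listed at 0 in all 6 libraries. The part of these cells in the level of Retnla was not tested. The 5 airway markers, led by Scgb1a1 (club cell secretoglobin), were at 3288.0 and 20204.2 CPM untreated, at 2935.3 and 21113.1 CPM after papain and at 11076.5 and 11127.8 CPM with FK506. Papain replicate 1, with the most Retnla, had the lowest airway sum of the 6, and untreated replicate 1, with the least Retnla, the next lowest. The part of airway cells in the level of Retnla was not tested.

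**Figure D5:**
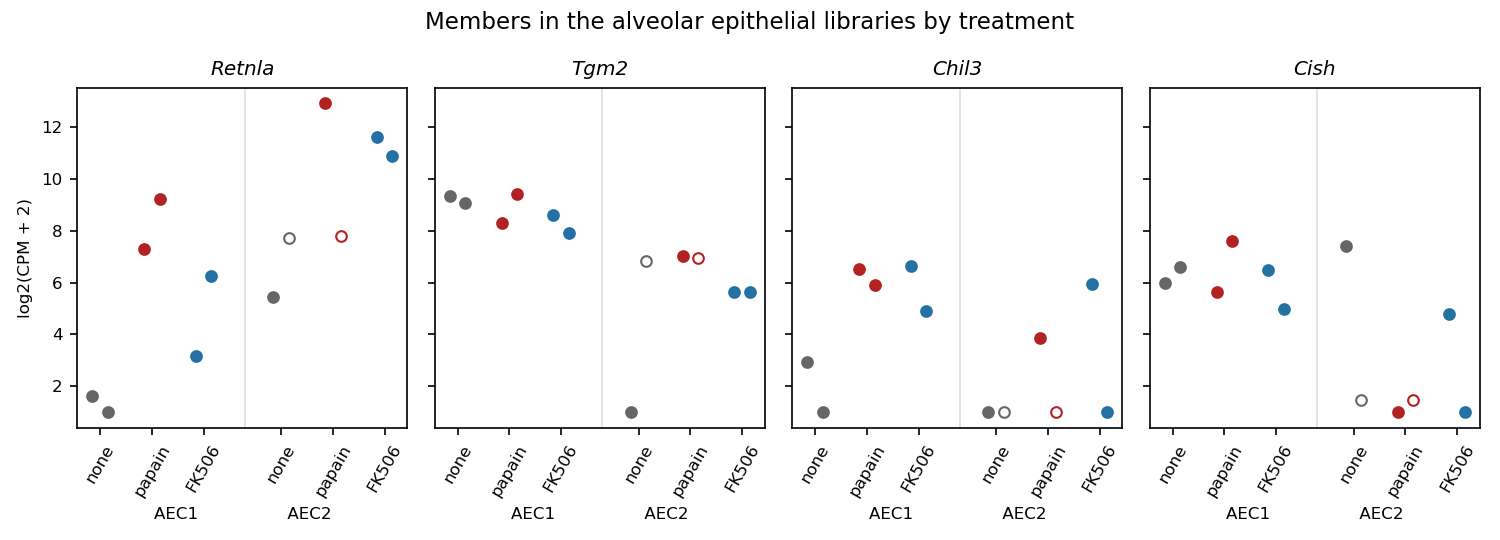
Levels of Retnla, Tgm2, Chil3 and Cish, as log2(CPM + 2), in the 6 AEC1 and 6 AEC2 libraries by treatment, where none stands for untreated and FK506 for papain with FK506. Each point is 1 library and open points are the 2 AEC2 libraries that share reads. Retnla is higher in every papain than in every untreated library of the same population, and Tgm2 is higher in all AEC1 than in all AEC2 libraries. For Retnla in AEC2, the open papain point (222.6 CPM, 271 reads) is barely above the open untreated point (210.1 CPM, 273 reads).

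Compared over all treatments, the libraries labelled AEC2 and AEC1 differed in 2 of the 8 members tested, 1 as higher and 1 as lower, where 12.7% of 9841 genes differed, 4.43% as higher and 8.25% as lower. Retnla was higher in AEC2 by 4.74 on the log2 scale (SE 0.91, adjusted p = 0.00659) and Tgm2 was lower by a log2 difference of -3.20 (SE 0.84, adjusted p = 0.0295). Without the shared pair the differences were 5.21 (adjusted p = 0.00638) and -4.21 (adjusted p = 0.00133). The call of Retnla was kept in all 17 alternatives, with an adjusted p of at most 0.0344. That of Tgm2 was lost in 11 of 17, with adjusted p up to 0.0945, and these were the fit with a replicate block (0.0826) and the fits that each left out 1 of 10 of the 12 libraries, all but AEC2 untreated replicates 1 and 2 (0.0525 to 0.0945). The values of Tgm2 themselves did not overlap, with 243.0 to 688.9 CPM in AEC1 and 0.0 to 129.8 CPM in AEC2. Cish had a difference of -3.27 (SE 1.14, adjusted p = 0.0822) and passed only without AEC2 untreated replicate 1 (adjusted p = 0.0225). Among the other epithelial IL-13 response genes and relatives, Chia1 (acidic mammalian chitinase) and Chil1 were higher in AEC2. Chia1 was at 207.0 to 444.6 CPM in AEC2 and 0.0 to 30.7 CPM in AEC1, and Chil1 at 1554.3 to 4504.0 CPM and 3.5 to 324.4 CPM. Il33, an alarmin upstream of IL-13, was also higher in AEC2 (log2 difference 4.62, SE 0.99, adjusted p = 0.0117). Fn1 (fibronectin) was lower by a log2 difference of -8.13 (SE 0.67, adjusted p = 2.78e-05), beside the fibroblast markers in AEC1 given above.

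Whether the response differed between populations was tested as an interaction. For papain versus untreated in AEC2 minus AEC1, 0 of 8 members were called (0% of 9841 genes by limma, where 454 had an unadjusted p under 0.05), and Retnla had a difference of -3.31 (SE 2.23, adjusted p = 0.972). For papain with FK506 versus papain in AEC2 minus AEC1, 0 of 8 were called (0% of all genes, where 566 had an unadjusted p under 0.05), and Retnla had a difference of 4.51 (SE 2.23, adjusted p = 0.913). In AEC1 both libraries with FK506 had less Retnla than both papain libraries, while in AEC2 they lay between the 2 papain libraries, and the difference between the populations did not pass the test. For papain with FK506 versus papain in basophil-labelled minus AEC1 and minus AEC2 libraries, 0 of 9 members were called in each (0% of 10697 genes, where 618 and 610 had an unadjusted p below 0.05). None of these 4 tests called a member without the shared pair either.

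In ILC2, Cish and Arg1 had the highest medians of the 9 members. Cish reached 10 CPM in all 9 libraries, and Arg1, Il4ra and Stat6 each in 8. Arg1 was at 128, 361 and 1 CPM untreated, at 402, 365 and 728 CPM after papain and at 452, 31 and 475 CPM after papain with FK506 (replicates 1, 2 and 3). All 3 papain libraries were above all untreated ones, narrowly so between 365 and 361 CPM, and the FK506 libraries overlapped both groups. The 475 CPM came from the library with few ILC2 markers. Cish was at 696, 709 and 58 CPM untreated, at 509, 613 and 127 CPM after papain and at 266, 584 and 104 CPM with FK506. In every treatment replicate 3 was the lowest for Cish.

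Chil3 and Mrc1 were highest in replicate 3 of every treatment, and Retnla in replicate 3 of the 2 treated groups. Retnla was at 1372 CPM in papain replicate 3, at 236 CPM in FK506 replicate 3 and at 16 CPM in papain replicate 1, and it was listed at 0 in the other 6 libraries. Chil3 was at 1199, 827 and 555 CPM in replicate 3 of the untreated, papain and FK506 groups and at 0 to 140 CPM in the other 6. Mrc1 was at 61, 62 and 411 CPM in replicate 3 and at most 10 CPM elsewhere. The same libraries held the transcripts of other cells. Alveolar macrophage markers summed to 594.0 to 1725.0 CPM in replicate 3 and to 3.0 to 148.0 CPM in replicates 1 and 2. Markers of other macrophages summed to 974.0, 1234.0 and 12556.0 CPM in replicate 3 and to 260.0 to 402.0 CPM elsewhere. Their part in the levels of Retnla, Chil3 and Mrc1 was not tested.

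Il4ra was at 177, 169 and 442 CPM untreated, at 181, 204 and 0 CPM after papain and at 115, 249 and 263 CPM with FK506. Apart from the 0 in papain replicate 3, its levels lay in a range of 115 to 442 CPM. Stat6 was at 81, 31 and 14 CPM untreated, at 84, 67 and 0 CPM after papain and at 80, 42 and 51 CPM with FK506. Tgm2 was at 0, 13 and 82 CPM untreated, at 2, 2 and 7 CPM after papain and at 101, 60 and 437 CPM with FK506, so that every FK506 library was above every papain library. Socs1 did not exceed 27 CPM.

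All 9 members were tested in ILC2, in a fit with a term for the file-name code, and 0 were called in each comparison, where 0% (papain versus untreated), 0.0159% (papain with FK506 versus papain) and 0% (papain with FK506 versus untreated) of 6271 genes were called. Unadjusted p-values under 0.05 were found for 234, 262 and 250 genes. Arg1 had a log2 difference of 2.88 after papain (SE 1.05, adjusted p = 0.985). Groups lay apart as higher for 1 of the 9 members after papain, where 4.31% of all genes were, and for 1 of 9 in papain with FK506 versus papain (Tgm2), where 4.05% were. Without untreated replicate 3, the library with 1 CPM of Arg1, the difference was 0.30 (adjusted p = 1.000), and with replicates 1 and 2 only it was 0.59 (adjusted p = 1.000). Tgm2 had a log2 difference of 4.82 in papain with FK506 versus papain (SE 1.56, adjusted p = 0.910) of 4.68 without FK506 replicate 3, the library with few ILC2 markers (adjusted p = 0.822), and of 4.13 with replicates 1 and 2 only (adjusted p = 0.725). Il4ra had a difference of -2.60 after papain (SE 1.06, adjusted p = 0.985), which was -0.09 without papain replicate 3 (adjusted p = 1.000). In papain with FK506 versus papain Il4ra had a difference of 2.14 (SE 1.06, adjusted p = 0.910), which was 0.91 without FK506 replicate 3 (adjusted p = 0.918) and turned to -0.37 without papain replicate 3. The ligand gene Il13 was at 30, 56 and 0 CPM untreated, at 386, 182 and 66 CPM after papain and at 77, 68 and 0 CPM with FK506, and it did not pass the test.

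The genes whose log2 levels followed each member most closely over the 28 libraries are a description, because the libraries share populations, batches and depth. Mrc1 was closest to Il1rn, Nfam1 and Igsf6 (Pearson r = 0.93 for each), and Chil3 to Ccl6 (0.89), Fgr (0.84) and Acvrl1 (0.84). Arg1 was closest to Hnrnph3 (0.89), Was (0.89) and Dusp6 (0.87), and Retnla to Coprs (0.87), Psma6 (0.79) and Tpp1 (0.78). Stat6 was closest to Prkar1a (0.86), Zbtb7a (0.80) and Fam120a (0.78), Tgm2 to Sirpa (0.78), Ifitm3 (0.77) and Fn1 (0.76), and Il4ra to Cerk (0.79), Rilpl2 (0.78) and Irf7 (0.74). Cish was closest to S100a4 (0.78), Crtc3 (0.74) and Igf1r (0.74), and Socs1 to Top3a (0.79), Igflr1 (0.76) and Rasa2 (0.73). Over the 7 basophil-labelled libraries alone, Arg1 was closest to Pdia6 (1.00), Eif4e3 (0.99) and Osm (0.99), and Retnla to Atxn1l (0.99), Utp3 (0.98) and Actl6a (0.98). These coefficients rest largely on the untreated library, where all 8 genes were at 0.0 or 0.5 CPM. Osm, the cytokine oncostatin M, for example, was at 0.5 CPM untreated, at 271.1, 671.8 and 778.3 CPM after papain and at 100.8, 474.8 and 512.9 CPM with FK506.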

How the data were processed

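The 28 libraries were grouped by their labels. Per the submitters' processing notes, STAR 2.7.0c, featureCounts 1.6.0, mm10 and GRCm38.p6 were used, with no role given. The authors deposited CPM for the AEC1, AEC2 and basophil libraries. The deposited values of ILC2 and of AEC2 untreated replicate 1 are whole numbers and were treated as a score, that is CPM rounded by the authors. The CPM listed in a library came to between 986819 and 992527 (AEC1), between 989855 and 992311 (AEC2), between 612434 and 672357 (basophil) and between 519768 and 636598 (ILC2), and the base of the last 2 is not known. For AEC1 and 5 AEC2 libraries whole reads were recovered from the CPM step, with 100% of values under 25 CPM within 0.1 read of a whole number, giving 847782 to 975466 and 1206887 to 1336081 reads. For the other libraries the depth is unknown.

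After division by TMM factors from edgeR 4.0.16, log2(CPM + 2) was fitted with limma 3.58.1 (trend) in R 4.3.3. A gene entered with 10 CPM or more in at least 3 libraries (basophil, ILC2) or 2 (AEC1, AEC2). All libraries of a population shared 1 estimate of spread. Tests were two-sided, with Benjamini-Hochberg adjustment over all genes at 0.05, and were tested on simulated data. edgeR's quasi-likelihood test and DESeq2 1.42.0 were run on recovered reads only. The members and lists were chosen with earlier results of these data known. Named genes were all members, up to 6 passing pathway genes per direction, relatives at 10 CPM or more, and the 3 genes most like each member. Alternatives were another pseudocount (1 or 8 CPM), filter, scaling or moderation, fewer groups, each library left out and a replicate block. The fits without the 2 libraries that share reads, and without the untreated basophil library, were added after seeing the data.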

Additional observations from a re-analysis of the deposited data

How the results depend on the processing

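Of the alternatives run, 528 left a count of called members or genes within 1.5 times its value and 88 moved it. Of the values of single genes, 480 kept direction and call, 30 gained a call, 19 lost it and 6 turned. The cause was not tested.

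In basophil-labelled libraries, using only the 2 groups compared gave 2551 called genes for papain versus untreated (1351 in the report), 2311 genes (1362) and 6 members (3) for papain with FK506 versus untreated, and 3 genes (0) for papain with FK506 versus papain. The comparison of both treatments had 9 genes with 8 CPM added, 8 with robust moderation and 3 with treated libraries only. Each of the 3 other scalings gave 5 members for papain with FK506 versus untreated. Leaving out 1 library gave 3 to 5 members for papain versus untreated, 2 to 5 for papain with FK506 versus untreated and 0 to 5 genes for papain with FK506 versus papain. In that comparison Chil3 turned to 0.00 without papain replicate 6, and Stat6 to -0.20, -0.15 and -0.14 without papain replicate 5, FK506 replicate 7 and FK506 replicate 8. Leaving out 1 library moved Chil3 between -1.46 and 0.00 and Stat6 between -0.20 and 0.92.

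In AEC1, papain versus untreated had 13 genes with robust moderation, 15 genes and 1 member with edgeR, and 305 genes and 1 member with DESeq2. DESeq2 called 84 genes for papain with FK506 versus papain. Papain with FK506 versus untreated (2 genes) had 0 with 1 CPM added, 12 with 8 CPM, 38 with robust moderation, 0 with only the 2 groups, 29 with edgeR, 457 with DESeq2 and 0 to 1 with 1 library left out.

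In AEC2, only the 2 groups gave 1 member and 3 genes for papain versus untreated, and leaving out 1 library gave 0 to 1 member and 0 to 2 genes. For papain with FK506 versus papain there were 67 genes with DESeq2 and 0 to 1 with 1 library left out. Papain with FK506 versus untreated had 6 genes with robust moderation, 19 with DESeq2, and 0 to 5 genes and 0 to 1 member with 1 library left out.

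In ILC2, called genes for papain versus untreated were 5 with 8 CPM added, 2, 3 and 2 with size factors, no scaling and scaling to the listed sum, 8 with robust moderation, 1 without the batch term and 0 to 2 with 1 library left out. For papain with FK506 versus papain (1 gene) they were 4 with 8 CPM, 2 without scaling, 2 with the listed sum, 5 with robust moderation, 0 with only the 2 groups, 0 with replicates 1 and 2 only and 0 to 2 with 1 library left out. For papain with FK506 versus untreated they were 1 with 8 CPM, 1 under each of the 3 scalings and 3 with robust moderation. Il4ra in papain with FK506 versus papain turned to -0.37 without papain replicate 3 and -0.36 with replicates 1 and 2 only, and leaving out 1 library moved it between -0.37 and 3.04.

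Between populations, the level of AEC2 minus AEC1 had 1 to 3 members with 1 library left out. AEC2 minus AEC1 for papain versus untreated had 0 to 1 genes. Basophil minus AEC1 had 42 genes without the filter and 0 to 1 with 1 library left out. Basophil minus AEC2 had 10 without the filter, 7 without the shared pair and 0 to 3 with 1 library left out.

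Same-numbered libraries deviated together at r of -0.02 to 0.017 in AEC1, -0.01 to 0.447 in AEC2 and 0.047 to 0.228 in ILC2. Different-numbered ILC2 libraries had r of -0.19 to 0.106. In AEC1 and AEC2, with 2 libraries per group, different numbers give the same r with its sign turned. The 0.447 in AEC2 is between the untreated and papain groups, which hold the libraries that share reads. These r do not settle whether the numbers pair the libraries, and the main fits did not pair them. With a replicate block, ILC2 papain versus untreated had 2 genes, and the level of AEC2 minus AEC1 had 1 member and 483 genes (2 and 1248 without the block). The block left the other counts within 1.5 times. Basophil libraries share no numbers between groups, so no block was fitted there. Depth is unknown for the basophil and ILC2 libraries, which limits what their zeros show.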
